A study of Mus musculus with 14 samples.

Results

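Undernutrition of mice through gestation and suckling was compared with unrestricted feeding in epididymal fat, the white fat depot beside the testis and epididymis. The comparison used 9 of the 14 arrays of the series, chosen by the group named in the labels. All mice were of the outbred ICR strain, labelled male and aged 3 weeks. The 5 control mice (CC) came from dams that ate freely in pregnancy and lactation. The 4 restricted mice (UU) came from dams given 50% of the controls' food in pregnancy and again while nursing. The other 5 arrays (UC) came from mice restricted in utero only and then nursed by dams that ate freely, and they entered the fit to estimate the spread. The labels do not say which mice were littermates, so each array was treated as an independent animal, and p-values measure only the spread between these arrays.

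White fat expands quickly in suckling mice, as milk fat is taken up and stored as triglyceride by newly formed and enlarging adipocytes. The expanding depot lays down collagen, grows capillaries and takes in macrophages, many of which express the scavenger and mannose receptors of the resident, alternatively activated kind. Adipocytes report their fat stores through secreted proteins such as leptin. The depot touches the epididymis, and tissue of that organ can enter a dissected sample. A lower signal in whole tissue can come from fewer cells of a type or from less RNA per cell, which cannot be told apart here.

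Adipocyte identity was clear on every array. The adiponectin gene Adipoq had signals from 46716 to 88737 in CC and from 25263 to 45790 in UU. The arrays differed in other tissues. Gpx5, the peroxidase that epididymal epithelium secretes, was at 409.6 and 827.8 in CC replicates 2 and 4 and at 5711 or more on the other 7 arrays of CC and UU. The mean log2 level of 7 epididymal secreted protein genes was 11.40 ± 3.23 (SD, n = 5) in CC and 12.92 ± 0.75 (n = 4) in UU, and that of 21 general epithelial markers was 10.78 ± 1.52 and 11.89 ± 0.16. CC replicate 2 went against its label of male, with Xist, the RNA that silences an X chromosome in females, at 3981 and the Y-linked Eif2s3y at 58.6. UC replicate 5 did so too, with Xist at 5643 and Eif2s3y at 7.9, and on the other 12 arrays Xist was at 481.2 to 1324. The same UC array and UC replicate 2 were low in Gpx5, at 1155 and 856.8. CC replicates 2 and 5 carried skeletal muscle actin, Acta1, at 7453 and 9065, against at most 873 on the other arrays. The 3′ over 5′ ratio (log2, mean of the Gapdh and Actb control probe sets), a measure that increases with RNA degradation, was 2.10 in UU replicate 3 and 0.40 to 1.08 in the other CC and UU arrays, with 1.63 and 1.59 in UC replicates 1 and 4. Between UU and CC, exact permutation tests over all divisions of the arrays (two-sided, adjusted over 5 measures) gave p = 0.54 for epididymal genes, 0.397 for epithelial markers, 0.397 for liver plasma protein genes, 0.54 for muscle genes and 0.397 for the 3′ over 5′ ratio. Many list medians below are also given without CC replicates 2 and 4 or without UU replicate 3. Of 248 named genes, the log2 difference turned sign in 12 and shrank by over 1.5 times in 60 without CC replicates 2 and 4, and did so in 1 and 31 without UU replicate 3. Another probe set was tested for 93 of these genes, and in 29 of them 1 or more had the opposite sign.

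No probe set passed in UU against CC. Of 12228 probe sets tested in limma, 0 (0%) had an adjusted p under 0.05, and the smallest adjusted p was 0.0789. At an unadjusted p under 0.05 there were 1963 (16.1%), split into 961 higher in UU (7.86%) and 1002 lower (8.19%). After centring each array on its median the split was 547 higher and 1355 lower, because that scaling moved the median log2 difference of all probe sets from 0.03 to -0.04. In 507 probe sets (4.15%) every UU array lay above every CC array, and in 453 (3.7%) every UU array lay below. Standard errors of these log2 differences had a median of 0.23. In simulated arrays with 200 changed probe sets, the same fit found 59.2% of 2-fold and 94.6% of 4-fold differences for this comparison. The simulated noise was independent between probe sets. It held no differences shared by many genes of an array, such as the epididymal level, so these shares may not hold for the real arrays. The statements below on single genes therefore give values, ranks and unadjusted counts, and each gene is described by its brightest tested probe set, 8164 genes in all. Over those genes the median log2 difference was 0.06, with 56.3% above 0, 594 (7.28%) lower and 685 (8.39%) higher at an unadjusted p under 0.05. Counts of list members given below are to be read against these shares.

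**Figure D1:**
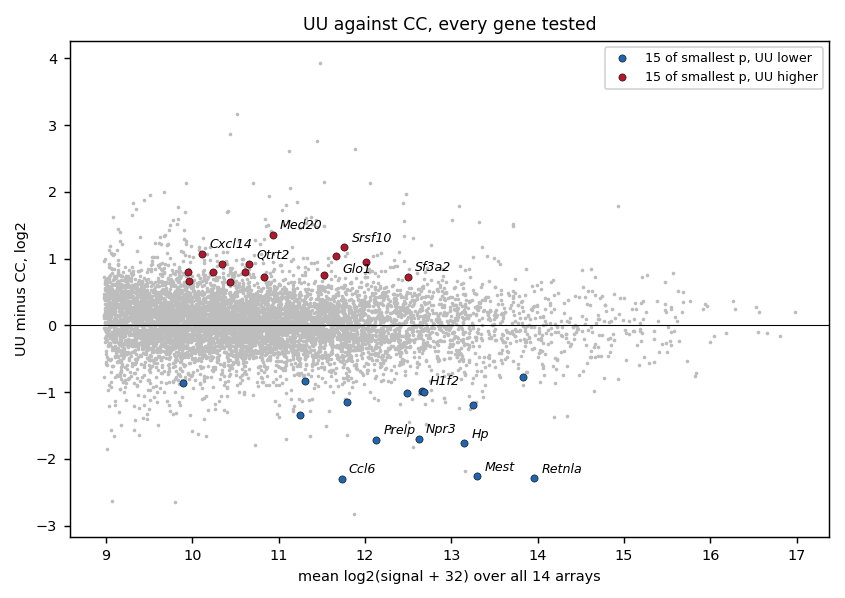
Each point is 1 of the 8164 genes tested, with its mean level over all 14 arrays on the horizontal axis and the log2 difference between UU and CC on the vertical axis. The 15 genes of smallest p in each direction are coloured, and the lower ones reach further from 0 (Retnla and Ccl6 at -2.29 and -2.30) than the higher ones (Med20 at 1.36).

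The lower genes of smallest p included members of the fat expansion, macrophage, matrix and endothelial lists described below. In order of p they were H1f2, Mest, Retnla, Prelp, Itgb1bp1, Hp, Col6a3, Mrc1, Steap4, Cd93, Lgals3bp, Npr3, Ccl6, Erp29 and Rgl1. In all 15 every UU array lay below every CC array, as in 279 genes (3.42%) of all those tested, and their limma adjusted p ran from 0.0789 to 0.106. Their log2 differences kept their sign in every other setting of the analysis that gave them a value. These genes were picked by p from the same arrays, so the separation and the steady sign follow largely from that choice.

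Mest, an imprinted gene expressed from the paternal copy and tied to adipocyte enlargement, had the second smallest p of the lower genes. Its signals were 19643, 5617, 16853, 31842 and 15287 in CC and 2089, 5200, 2476 and 4013 in UU. CC replicate 2 was the low control and UU replicate 2 the high restricted array, and these neighbours alone came close to each other. The mean was 17848 ± 9437 (SD, n = 5) against 3444 ± 1435 (n = 4), which is 4.78-fold lower by the fitted log2 difference of -2.26 ± 0.38 (SE, limma adjusted p = 0.0789). Without CC replicate 2 the difference was -2.62 with an adjusted p of 0.00159, the only probe set called in that fit. Over all settings its adjusted p ran from 0.00159 to 0.22. In UC the signals were 13278 to 19812, and the direct difference between UU and UC was -2.32 ± 0.38 (limma adjusted p = 0.0281).

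Npr3, the receptor that clears natriuretic peptides and so limits their lipolytic signal, was at 8142, 6359, 8783, 15598 and 5728 in CC. In UU it was at 1168, 3456, 2341 and 4473. The groups did not overlap, and the log2 difference was -1.70 ± 0.37 (adjusted p = 0.105), with -1.76 for the other Npr3 probe set. Cav1 and Cavin1, the coat proteins of the caveolae that fill the adipocyte membrane, had log2 differences of -0.53 ± 0.18 and -0.97 ± 0.33, again with no overlap. A list of genes tied to fat pad expansion, of which Mest, Npr3, Cav1 and Cavin1 are members, had 7 of 8 tested members below 0 and a median of -0.88. That median was -0.58 without CC replicates 2 and 4 and -0.55 without UU replicate 1. The 4 named members were the only ones whose groups did not overlap. Lists were chosen with earlier results of these data known, so these values describe the list and are not a test.

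Leptin overlapped between the groups, unlike Mest, Npr3, Cav1 and Cavin1. Lep, the satiety hormone secreted in step with fat stores, was at 5157, 2747, 5288, 10200 and 4661 in CC and at 85.6, 5948, 3796 and 3768 in UU. UU replicate 1 was almost without signal while the other 3 UU arrays lay inside the control range. The log2 difference of -1.53 ± 0.82 (adjusted p = 0.368) therefore rested on that array, and it was -0.22 without it. The promoter of Lep is shown because Cebpa, which encodes a known regulator of this gene, was itself lower in every UU array (5061, 7501, 3562 and 6980 against 9013 to 15210 in CC, log2 difference -1.06 ± 0.25, adjusted p = 0.129). RefSeq places the window at chr6:29059971-29060270 of GRCm38.p6 on the plus strand, 250 bases before to 50 bases after the annotated start. Capitals mark the palindrome TTGCGCAA, 55 bases before the start, which 60 of 32851 promoters (0.183%) hold. Both strands were searched, and the match is a description of the letters.
Lep: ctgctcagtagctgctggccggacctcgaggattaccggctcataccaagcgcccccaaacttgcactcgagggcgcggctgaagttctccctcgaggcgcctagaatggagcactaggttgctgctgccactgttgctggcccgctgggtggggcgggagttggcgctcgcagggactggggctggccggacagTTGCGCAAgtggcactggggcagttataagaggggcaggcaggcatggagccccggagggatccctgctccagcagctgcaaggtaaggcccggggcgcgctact

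**Figure D2:**
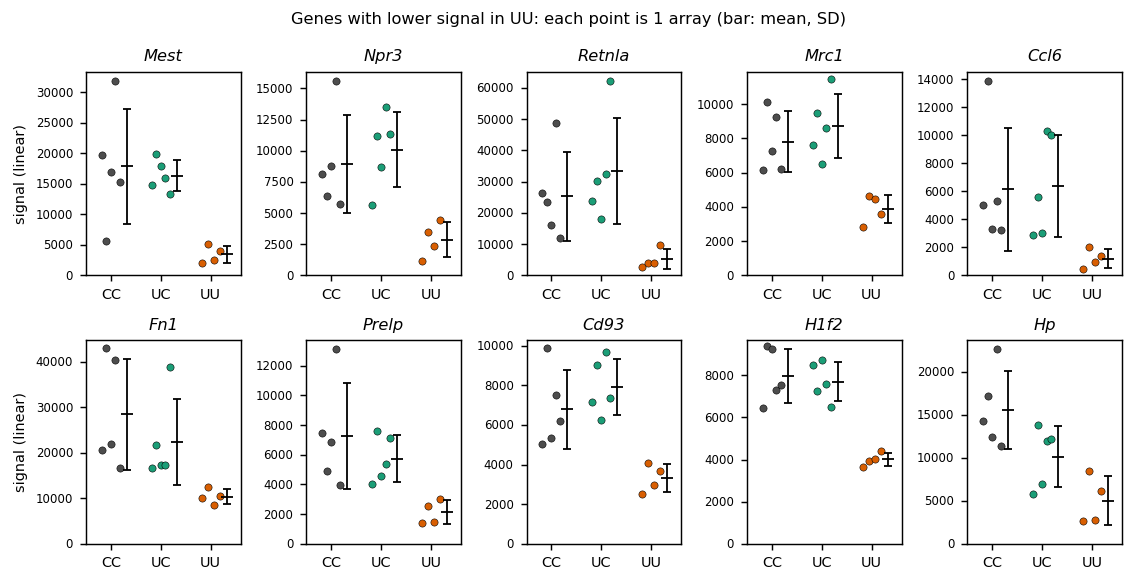
Signals on a linear scale for 10 genes that were lower in UU, with 1 point per array, and a bar for the mean and SD of each group (5 CC, 5 UC, 4 UU). In each panel the UU points lie below all CC points, as in Mest with UU at 2089 to 5200 and CC at 5617 to 31842.

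The growth hormone and insulin-like growth factor axis gave mixed results. Of 14 members tested, 9 were below 0 (median -0.32), 4 lower and 1 higher at an unadjusted p under 0.05. The binding proteins Igfbp5, Igfbp6 and Igfbp7 had log2 differences of -1.17 ± 0.40, -0.79 ± 0.32 and -0.40 ± 0.16, while the other probe sets of Igfbp5 and Igfbp7 gave -0.16 and 0.08. The kinase Jak2, which sits on the growth hormone receptor, gave 0.48 ± 0.18. Without CC replicates 2 and 4 none of the 14 reached an unadjusted p under 0.05. Igf1 itself depended on the probe set. The brightest was at 29061, 37678, 34086, 43300 and 25599 in CC and 13089, 28690, 42296 and 18355 in UU, with UU replicates 2 and 3 inside the control range (log2 difference -0.52 ± 0.31, adjusted p = 0.409). Another Igf1 probe set was at 6744 to 11065 in CC and at 2392, 3724, 1534 and 3791 in UU, with no overlap (-1.63 ± 0.28, limma adjusted p = 0.0789), and the last gave -1.02 ± 0.28. Ghr, the growth hormone receptor, was examined after its values were seen because its 3 probe sets also differed in size, at -0.48 ± 0.24, -1.16 ± 0.24 and -1.58 ± 0.35. In both genes the probe sets shared the direction and differed in which UU arrays were low.

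Growth genes of the imprinted class did not share the direction of Mest. Of 12 others tested, 6 were above and 6 below 0, and the median of 0.00 changed sign in 10 other settings. Dlk1, a preadipocyte factor that holds back adipocyte differentiation, was at 1827, 1544, 1083, 1316 and 1808 in CC and at 4019, 2482, 2288 and 4277 in UU. All UU arrays were above all controls (log2 difference 1.06 ± 0.39, adjusted p = 0.216). Igf2, a fetal growth factor, was at 2140 ± 399 in CC and 3462 ± 985 in UU (0.66 ± 0.25, adjusted p = 0.221), and the groups overlapped because CC replicate 4 reached 2822. Other progenitor markers were split. Their list, which also holds Dlk1, had 6 of 10 tested members above 0 (median 0.28, or 0.09 without CC replicates 2 and 4). At an unadjusted p under 0.05, 2 were higher and 3 lower, beside 8.39% and 7.28% of all genes. Gata2 gave 0.51 ± 0.23 and Ccn5 0.52 ± 0.30, while Cd34 gave -0.78 ± 0.24 and Zfp423, a preadipocyte commitment factor, -1.42 ± 0.46.

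Genes of the mature adipocyte were lower in storage and release of fat, and lay near the controls in fatty acid synthesis. All 10 tested members of the lipid droplet list (15 listed) were below 0, with a median of -0.73. Of these, 4 were lower at an unadjusted p under 0.05, beside 7.28% of all genes. Cidec, which fuses lipid droplets, was at 13646, 13894, 10727, 16510 and 10086 in CC and at 5263, 6670, 2652 and 8715 in UU, with no overlap (log2 difference -1.25 ± 0.36, adjusted p = 0.152). Mgll, the lipase of monoglycerides, was at 13908 to 20347 in CC and 6566, 13564, 6094 and 9676 in UU, where UU replicate 2 nearly reached the lowest control (-0.90 ± 0.24, adjusted p = 0.133). Lipe, the hormone-sensitive lipase, gave -1.11 ± 0.37, or -0.69 without UU replicate 3, which had the lowest signal of all (1517). Pnpla2, also a lipase, overlapped, with CC at 15432 to 29067 and UU at 11220 to 21833. Its log2 difference was -0.41 ± 0.26 (adjusted p = 0.445), or -0.17 without CC replicates 2 and 4. Without CC replicates 2 and 4 the list median was -0.42, with 8 of 10 members below 0.

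Pparg, the nuclear receptor that drives adipocyte differentiation, was at 4237, 5747, 3324, 6479 and 3530 in CC and at 1896, 3118, 1396 and 2900 in UU. The groups did not overlap (log2 difference -1.01 ± 0.29, adjusted p = 0.154). The wider list of 15 adipogenic factors had a median of -0.10, with 9 below and 6 above 0. Secreted products of adipocytes had 11 of 15 members below 0 (median -0.68). Ccdc80 was at 21110 to 41816 in CC and 11445 to 18835 in UU (-0.98 ± 0.25, adjusted p = 0.129). Angptl4, an inhibitor of lipoprotein lipase, gave -1.45 ± 0.42, with UU replicate 1 at 6880 inside the control range. That median was -0.36 without CC replicates 2 and 4, -0.44 without UU replicate 1 and -0.42 without UU replicate 3.

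Fat uptake and triglyceride assembly were lower in part. The fatty acid transporter Cd36 was at 35924, 44848, 33374, 48978 and 26122 in CC and at 18717, 24276, 18241 and 24166 in UU (log2 difference -0.80 ± 0.23, adjusted p = 0.152). Lpl, the lipase that frees fatty acids from lipoproteins, had 1 probe set at 0.20 ± 0.22 and a dimmer one at -0.75. Fabp4, the adipocyte fatty acid carrier, was at 117414 ± 18238 in CC and 105700 ± 24031 in UU (-0.17 ± 0.22), and its 3 other probe sets ran from -1.19 to 0.01. Of 12 uptake genes tested 10 were below 0 (median -0.33). Triglyceride assembly had 8 of 9 below 0 (median -0.43), with Dgat2, which adds the last fatty acid, at -1.36 ± 0.40 and Pck1, which supplies glycerol, at -1.24 ± 0.54, or -0.59 without CC replicates 2 and 4. UU replicates 2 and 4 held Dgat2 at 15401 and 20696, just below and inside the control range, while replicates 1 and 3 were at 4311 and 5562.

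The fatty acid synthesis list had 12 of 20 members below 0 and a median of -0.06, which changed sign in 4 settings. Fasn, the fatty acid synthase, was at 15015 to 23279 in CC and 6863, 25427, 15561 and 24882 in UU, so UU replicate 1 was low and UU replicates 2 and 4 were above all controls (log2 difference -0.29 ± 0.33, adjusted p = 0.672). Scd1, which desaturates stearate, gave 0.37 ± 0.19, and the lipogenic regulator Srebf1 gave 0.37 ± 0.32. The standard errors of Fasn and Srebf1 were close to the size of their differences.

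Oxidative and glycolytic enzymes were mostly below 0. Fatty acid oxidation had 18 of 21 members below 0 (median -0.49), led by the electron-transfer genes Etfdh at -0.97 ± 0.33 and Etfa at -0.81 ± 0.28. The TCA cycle had 20 of 22 below 0 (median -0.43), with Sdhd, an anchor of succinate dehydrogenase, at -0.83 ± 0.25 and Idh3a at -0.68 ± 0.24, where other probe sets gave -0.11 for Sdhd and -0.34 to 0.03 for Idh3a. The respiratory chain had 44 of 59 below 0 (median -0.21), branched-chain amino acid breakdown 15 of 19 (median -0.31) and glycolysis 14 of 20 (median -0.25). Without CC replicates 2 and 4 these 5 medians were -0.25, -0.19, -0.08, -0.14 and -0.14, and without UU replicate 3 they were -0.37, -0.26, -0.11, -0.19 and -0.14. CC replicate 2, which also held muscle actin, had the highest signal of Etfdh (5378), Etfa (21041), Sdhd (8044) and Idh3a (15881). CC replicate 5, which held more muscle actin, was at 2222, 8234, 5550 and 10877 for these genes. The part of muscle RNA in these differences was not tested.

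Within glycolysis the members went different ways. Pfkfb3, which makes the activator of phosphofructokinase, was at 5210, 6943, 5643, 10871 and 6988 in CC and 1512, 4224, 1531 and 2610 in UU (log2 difference -1.60 ± 0.36, adjusted p = 0.111), and a dimmer probe set gave -0.24. Pfkp, the platelet-type phosphofructokinase, was at 1458 to 1773 and 749.2 to 1101 (-0.68 ± 0.16, adjusted p = 0.129). Slc2a1, the glucose carrier of most cells, was higher on every UU array, at 1710 to 2452 against 925.3 to 1428 (0.74 ± 0.25, adjusted p = 0.184). Slc2a4, the insulin-responsive carrier, was at 2483 ± 462 in CC and 2400 ± 627 in UU, with a log2 difference of -0.07 ± 0.25 that changed sign in 6 settings.

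**Figure D3:**
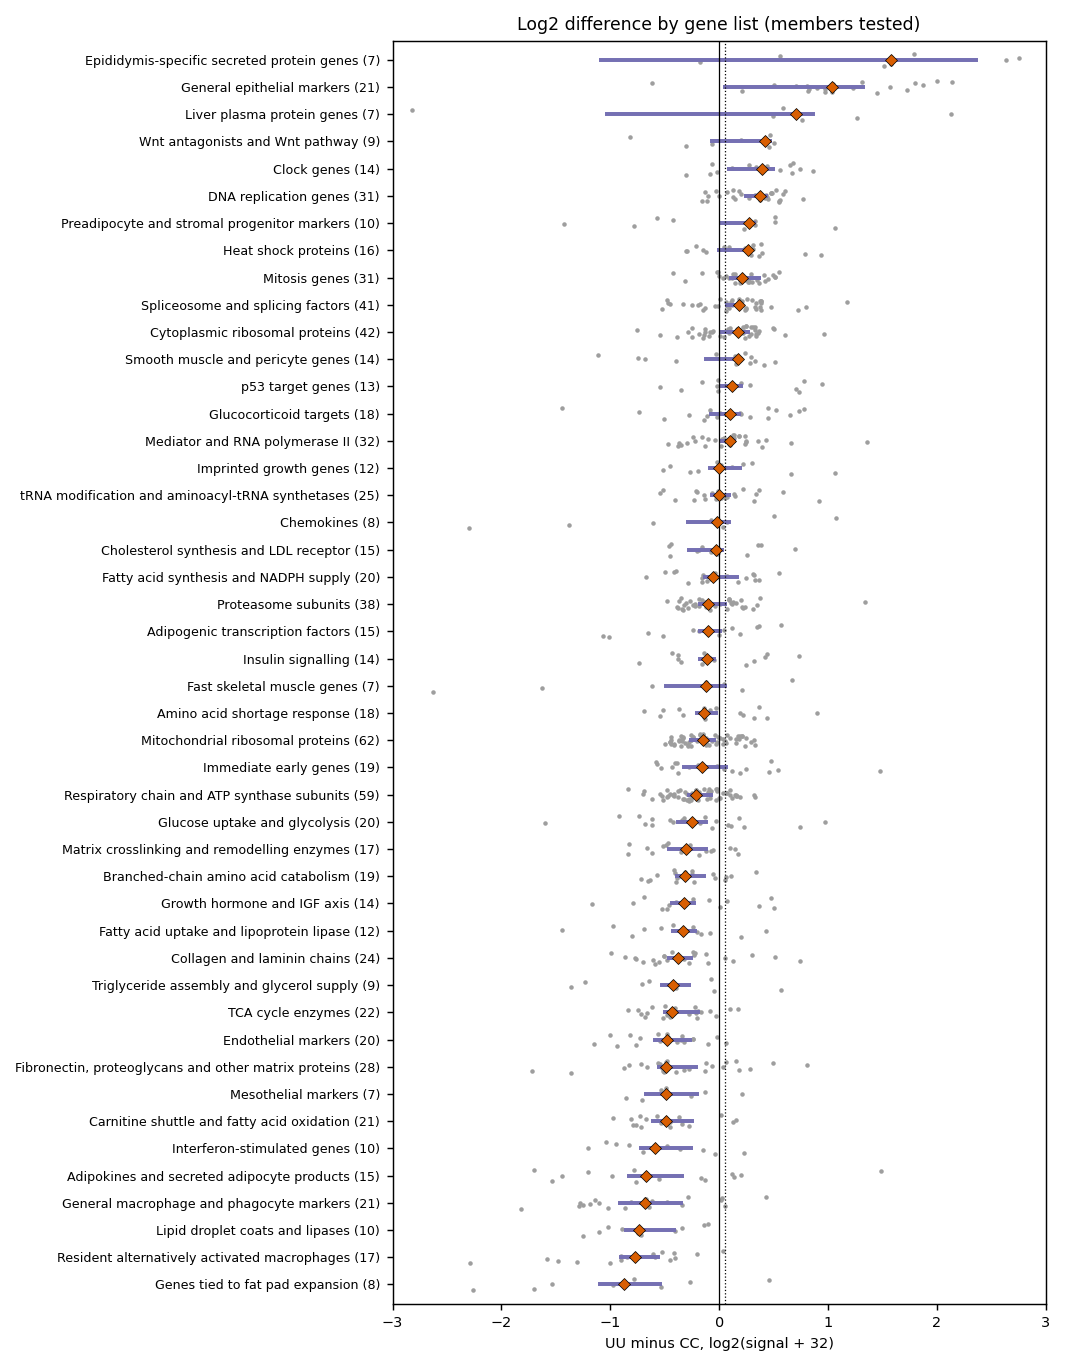
Gene lists with at least 7 members tested, ordered by the median log2 difference between UU and CC. Grey dots are members, orange diamonds the medians, purple bars the range of the median over all settings, and the dotted line the median of all genes (0.06). Complement (-1.05 over 6 members) had too few members to be drawn, and the epididymal list, highest at 1.58, has a range over settings that crosses 0.

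Macrophage transcripts were lower in UU. Of 17 tested markers of resident, alternatively activated macrophages 16 were below 0, and the median was -0.77. Lower at an unadjusted p under 0.05 were 11 of them, beside 7.28% of all genes. Retnla, a secreted resistin-like protein induced by interleukin-4 through STAT6, was at 26416, 23470, 16089, 48730 and 12092 in CC. In UU it was at 2749, 4083, 4048 and 9768, so the highest UU array stayed below the lowest control. The log2 difference was -2.29 ± 0.42 (limma adjusted p = 0.0867), or 4.89-fold, and -1.90 without CC replicates 2 and 4. The UC arrays were at 18113 to 62092, and the direct difference between UU and UC was -2.72 ± 0.42 (limma adjusted p = 0.0281).

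The Retnla promoter is shown because this was the lowest of the macrophage genes and its control by STAT6 is well known. RefSeq places the window at chr16:48842359-48842658 of GRCm38.p6 on the plus strand, with 250 bases before and 50 after the start. Capitals mark TTC and GAA with 4 bases between them, the spacing preferred by STAT6, which begins 145 bases before the start. Both strands were searched, and 2284 of 32851 promoters (6.95%) hold such a match, so it is common.
Retnla: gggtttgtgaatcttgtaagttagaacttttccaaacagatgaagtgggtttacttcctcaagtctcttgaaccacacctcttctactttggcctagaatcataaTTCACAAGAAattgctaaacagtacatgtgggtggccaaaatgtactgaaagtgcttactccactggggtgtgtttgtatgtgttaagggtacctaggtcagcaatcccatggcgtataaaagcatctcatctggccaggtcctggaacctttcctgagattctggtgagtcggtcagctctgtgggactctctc

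Mrc1, the mannose receptor, was at 6167, 10125, 7294, 9285 and 6233 in CC and at 2809, 4625, 4474 and 3598 in UU (log2 difference -1.004 ± 0.21, adjusted p = 0.103). F13a1, the clotting factor subunit carried by these macrophages, gave -1.48 ± 0.34, the lectin Clec10a -1.59 ± 0.43 and Gas6, a ligand for receptors of dead-cell uptake, -0.90 ± 0.22. Without CC replicates 2 and 4 the list median was -0.62 with 15 of 17 below 0, and without UU replicate 3 it was -0.75 with 17 of 17 below. These 2 controls were also the highest 2 for F13a1 (16702 and 13892) and for Mrc1. Both also had the lowest epithelial marker level of the controls, and the part of that in the difference was not tested.

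General phagocyte markers had 17 of 21 members below 0 and a median of -0.68, which was -0.35 without CC replicates 2 and 4, when 2 in place of 11 were lower at an unadjusted p under 0.05. Lyz2, the macrophage lysozyme, whose near-identical copy Lyz1 can share its probes, was at 7846, 26299, 6260, 15912 and 5548 in CC and 1760, 4150, 2226 and 4212 in UU. No arrays overlapped, but CC replicates 2 and 4 set much of the size, with -1.82 ± 0.48 over all arrays and -1.16 without those 2. C1qc, a chain of the first complement component made by macrophages, gave -1.25 ± 0.39. Cd14 and Msr1, a lipopolysaccharide co-receptor and a scavenger receptor of the same list, lay at 0.05 and 0.03 and were named after their values were seen.

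Complement genes had the lowest median of the immune lists. All 6 tested members (12 listed) were below 0, with a median of -1.05, or -0.74 without CC replicates 2 and 4. Of them 5 were lower at an unadjusted p under 0.05, beside 7.28% of all genes. C2, a protease of the classical pathway, was at 3617, 3673, 2814, 4034 and 2955 in CC and at 1061, 2334, 1741 and 1326 in UU (log2 difference -1.11 ± 0.26, adjusted p = 0.114). C1ra, the protease beside C1q, gave -1.05 ± 0.30, factor B, Cfb, -1.06 ± 0.33 and properdin, Cfp, -1.85 ± 0.53. Adipsin itself, Cfd, was not analysed here.

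Chemokines did not move as a group, with 4 of 8 above and 4 below 0 and a median of -0.02. Ccl6 was the lowest gene of all 8, at 4990, 13842, 3323, 5271 and 3227 in CC and 438.4, 2016, 957.6 and 1346 in UU (log2 difference -2.30 ± 0.50, adjusted p = 0.106, 4.92-fold). Its direct difference from UC was -2.37 ± 0.50 (limma adjusted p = 0.0459). A dimmer Ccl6 probe set gave -1.21 ± 0.44 (limma adjusted p = 0.209), with CC replicate 5 at 667.7 inside the UU range of 490.8 to 797.5. Against UC that probe set gave -1.41 (limma adjusted p = 0.153). Cxcl14, a chemokine secreted by epithelium and fat, was the reverse, at 604.7 to 1125 in CC and 1434, 1733, 1980 and 2159 in UU (1.07 ± 0.22, limma adjusted p = 0.0938). Interferon-stimulated genes had 9 of 10 below 0 (median -0.59), with Tap1 and Psmb8 of antigen processing at -1.04 ± 0.33 and -0.83 ± 0.27, and the median was -0.26 without CC replicates 2 and 4.

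Extracellular matrix was lower in fibrillar, basement membrane and adhesive proteins. Of 24 collagen and laminin chains, all on the array and tested, 19 were below 0, and the median was -0.38. At an unadjusted p under 0.05, 12 were lower and 1 higher, beside 7.28% and 8.39% of all genes. Col6a3, the chain of collagen VI that surrounds adipocytes, was at 15608, 17622, 16968, 19361 and 16624 in CC and at 7828, 12062, 8971 and 12114 in UU. The controls were tight and none came near UU (log2 difference -0.77 ± 0.16, adjusted p = 0.103). Col1a1 was at 43870 ± 3023 and 29620 ± 6187 (-0.59 ± 0.22), though a dimmer Col1a1 probe set gave 0.39. Col4a2 of the basement membrane gave -0.70 ± 0.20 and Col4a5, also a basement membrane chain and examined after its values were seen, 0.74 ± 0.29 with a dimmer probe set at 0.01. Without CC replicates 2 and 4, 21 of 24 were below 0 with a median of -0.28 and 4 lower at an unadjusted p under 0.05.

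Fn1, the fibronectin gene, was at 20718, 42977, 21978, 40311 and 16543 in CC and at 10075, 12486, 8470 and 10419 in UU. CC replicates 2 and 4 were the highest controls, and the log2 difference was -1.36 ± 0.30 (adjusted p = 0.106), or -0.93 without them. A dimmer Fn1 probe set gave -0.65. Prelp, a leucine-rich proteoglycan, was at 7470, 4937, 6877, 13123 and 3990 against 1421, 2570, 1480 and 3022 (-1.72 ± 0.32, limma adjusted p = 0.0867), with -1.89 for its other probe set. Nid2 of the basement membrane gave -0.88 ± 0.22 and elastin, Eln, -0.50 ± 0.17. This list had 21 of 28 members below 0 (median -0.48), or a median of -0.30 without CC replicate 2. Among remodelling enzymes 14 of 17 were below 0 (median -0.31, or -0.17 without CC replicate 2), with Loxl1, which crosslinks elastin, at -0.83 ± 0.24 and the proteoglycan protease Adamts5 at -0.83 ± 0.22.

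Endothelial markers had 19 of 20 tested members below 0 and a median of -0.48. Among them 7 were lower at an unadjusted p under 0.05, beside 7.28% of all genes. Cd93, a lectin-like receptor of endothelium, was at 5030, 9896, 5330, 7485 and 6175 in CC and 2531, 4076, 2952 and 3684 in UU (log2 difference -1.01 ± 0.21, adjusted p = 0.103), and its direct difference from UC was -1.25 ± 0.21 (limma adjusted p = 0.0281). Vwf, the von Willebrand factor, was at 670 to 1756 and 339.6 to 591.4 (-1.15 ± 0.34, adjusted p = 0.16). Pecam1 gave -0.94 ± 0.31, with CC replicate 4 at 2853 above the other controls at 1606 to 1818. Kdr, the main receptor of vascular endothelial growth factor, was at 2014 ± 397 and 1881 ± 448, and its log2 difference of -0.11 ± 0.20 changed sign in 4 settings. The list median was -0.29 without CC replicate 4 alone. Among cells around vessels, the smooth muscle and pericyte list had 9 of 14 above 0 (median 0.17, or -0.12 without CC replicates 2 and 4). Its pericyte genes went both ways. Pdgfrb, Mcam and Rgs5 gave -0.68 ± 0.20, -1.11 ± 0.36 and -0.75 ± 0.29, while Cspg4 and Notch3 gave 0.29 ± 0.20 and 0.15 ± 0.15. Other probe sets gave -0.83 and 0.78 for Rgs5, -0.11 for Cspg4 and -0.17 for Notch3.

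**Figure D4:**
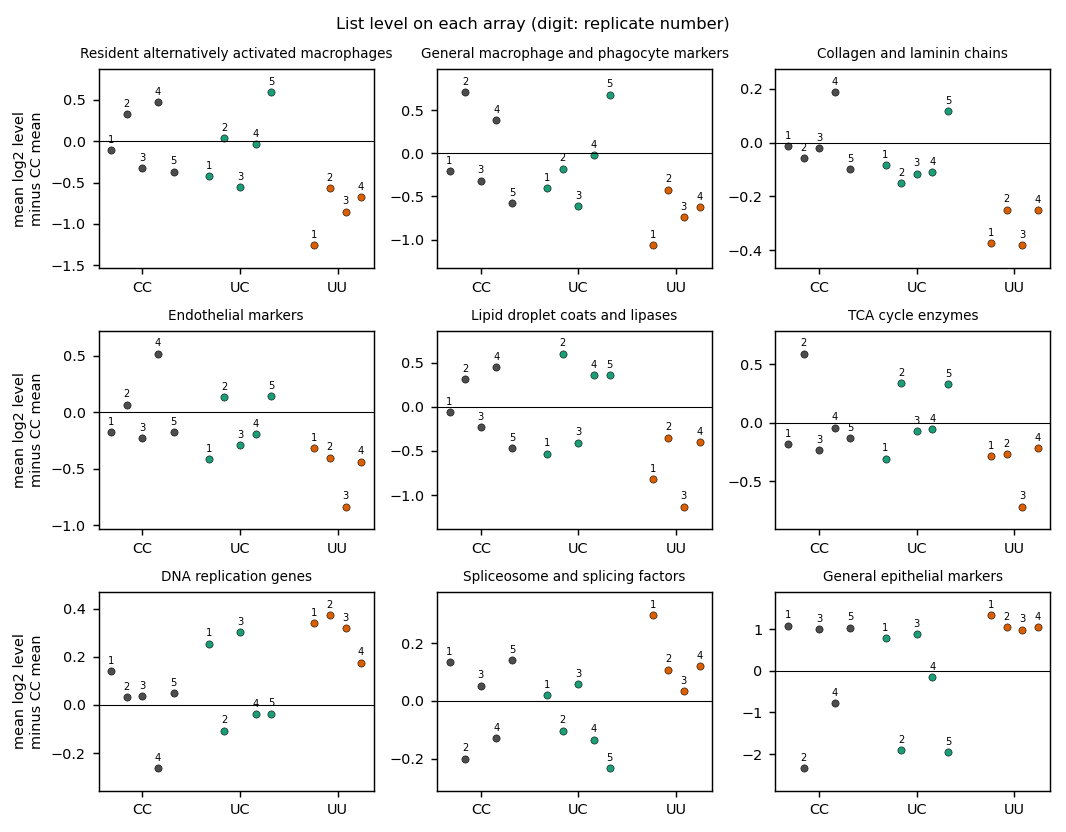
Mean log2 level of 9 gene lists on each array, set to 0 at the CC mean, with the replicate number beside each point. All UU arrays lie below all CC arrays for resident macrophages (-1.26 to -0.56 against -0.37 to 0.48), collagens and laminins and endothelium, and the epithelial panel shows CC replicates 2 and 4 far below the other controls.

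H1f2, a linker histone, had the smallest p of all genes by their brightest probe set, at 6430, 9374, 9254, 7326 and 7551 in CC and 3638, 3937, 4045 and 4416 in UU. In this probe set the spread within UU was small and no array overlapped (log2 difference -0.98 ± 0.15, limma adjusted p = 0.0789). The other H1f2 probe set gave -0.68 ± 0.28, and there UU at 2111 to 4940 overlapped CC at 4004 to 8486. Over all settings the log2 difference of H1f2 ran from -1.06 to -0.40. Hp, the haptoglobin gene, which fat expresses beside liver, was at 14242, 17156, 12359, 22621 and 11412 against 2598, 8507, 2800 and 6102 (-1.77 ± 0.35, limma adjusted p = 0.0938). Steap4, a metalloreductase of adipocytes, gave -1.19 ± 0.25, Itgb1bp1, which binds integrin tails, -1.35 ± 0.26, Lgals3bp, a secreted galectin ligand, -1.14 ± 0.24, Erp29 of the endoplasmic reticulum -0.84 ± 0.18 and the Ral exchange factor gene Rgl1 -0.86 ± 0.19. Serpina1b, a protease inhibitor made mainly by liver, had the largest log2 difference of the named genes and overlapped, with UU at 36.2, 1452, 1073 and 2367 and CC at 1629 to 10924 (-2.83 ± 0.78, adjusted p = 0.147). Its near-identical relatives can share its probes.

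The higher genes of smallest p included members of the splicing, Mediator, tRNA modification and chemokine lists. In order of p they were Qtrt2, Rbm15, Med20, Cxcl14, Sf3a2, Glo1, Srsf10, Gtf2ird2, Ldb2, Snrpd3, Mettl17, Mthfd1, Rbm26, Twist2 and Inpp5j, and in all 15 every UU array lay above every CC array, as in 387 genes (4.74%) of all those tested. Their limma adjusted p ran from 0.0789 to 0.129, and their sign held in every other setting that gave them a value. As with the lower genes, the separation and the steady sign follow largely from the choice by p. Qtrt2, a subunit of the enzyme that puts queuosine into tRNA, was at 1060, 1225, 1261, 1170 and 1033 in CC and at 1995, 2169, 2920 and 1810 in UU. The controls were tight, and the log2 difference was 0.91 ± 0.16 (limma adjusted p = 0.0789). Rbm15, which guides RNA methylation, was at 798.1 to 1059 and 1486 to 2257 (0.92 ± 0.17, limma adjusted p = 0.0867). Med20, a Mediator subunit, was at 859.2 to 1494 and 2017 to 4099 (1.36 ± 0.27, limma adjusted p = 0.0938), but its other probe set gave 0.29. The lists of Med20 and Qtrt2 did not follow them. The Mediator list had 21 of 32 above 0 (median 0.10), with 2 higher and 3 lower at an unadjusted p under 0.05. The tRNA modification list had 12 of 25 above 0, and its median of -0.001 changed sign in 6 settings.

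Several of the higher genes of smallest p act in the spliceosome. Sf3a2 of the U2 particle was at 5096, 3930, 5231, 4047 and 4897 in CC and 7480, 6787, 9122 and 7408 in UU (log2 difference 0.73 ± 0.15, limma adjusted p = 0.0938), with 0.12 for its other probe set. Srsf10, a serine and arginine-rich splicing factor, was at 1282 to 3281 and 4692 to 7151 (1.17 ± 0.25, adjusted p = 0.105), while its 3 other probe sets lay between -0.04 and 0.32. Snrpd3, a core Sm protein, was at 846.1 to 1042 and 1460 to 1940 (0.79 ± 0.18), and its other probe set gave 0.02. The probe sets of these genes therefore disagree in size. Of 41 splicing factors tested 29 were above 0, beside 56.3% of all genes. At an unadjusted p under 0.05, 7 were higher, beside 8.39% of all genes, and 0 lower. The list median was 0.18, or 0.11 after median centring and 0.08 without CC replicates 2 and 4.

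**Figure D5:**
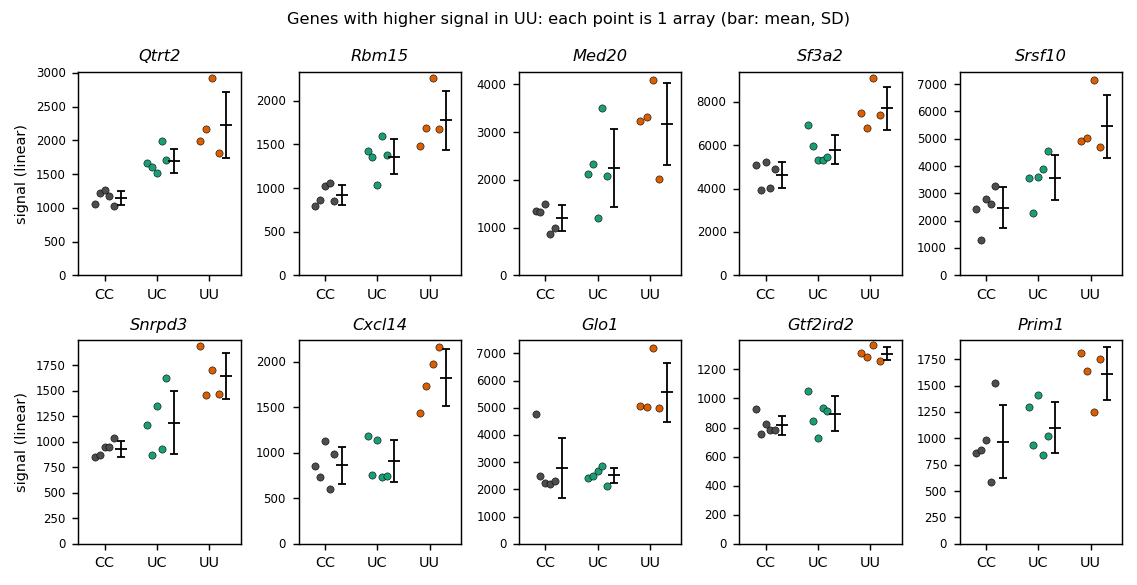
Signals on a linear scale for 10 genes that were higher in UU, with 1 point per array, and a bar for the mean and SD of each group (5 CC, 5 UC, 4 UU). The UU points lie above all CC points in each panel but Prim1, where CC replicate 5 reached 1527, and in Glo1 CC replicate 1 (4766) stands apart from the other controls.

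Glo1, the glyoxalase that removes methylglyoxal, was at 4766, 2479, 2235, 2207 and 2320 in CC and at 5052, 5031, 7200 and 4987 in UU. A single control, CC replicate 1, reached almost the level of UU, and the other 4 were at 2207 to 2479. The log2 difference was 1.03 ± 0.21 (adjusted p = 0.103) over all arrays. Without CC replicate 1 it was 1.24 with a limma adjusted p of 0.0171. The UC arrays were at 2105 to 2873 (UU minus UC 1.13 ± 0.21, limma adjusted p = 0.0387). Its other 2 probe sets gave 0.44 and 0.60 and also had CC replicate 1 as the highest control, at 5329 and 3431. UU was at 1947 to 4237 and at 2122 to 3906 in these, so the groups overlapped in both.

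Replication genes were higher as a list in UU. Of 31 tested (44 listed) 25 were above 0, beside 56.3% of all genes. At an unadjusted p under 0.05, 10 were higher, beside 8.39% of all genes, and 0 lower. The list median was 0.38, with 0.25 without CC replicates 2 and 4. Prim1, the primase that starts DNA strands, was at 861, 886.6, 982.8, 586 and 1527 in CC and 1805, 1642, 1248 and 1756 in UU, where CC replicate 5 overlapped UU (log2 difference 0.77 ± 0.24, adjusted p = 0.168), with 0.16 for its other probe set. Mcm6, a subunit of the replicative helicase, Mcm10, which helps to activate it, and Cdt1, which helps to load it, gave 0.56 ± 0.20, 0.45 ± 0.16 and 0.47 ± 0.17 with no overlap. Mitosis genes had 25 of 31 above 0 with a median of 0.21, or 0.13 without UU replicate 3. Epithelial markers moved with these lists, with 20 of 21 above 0 and a median of 1.03 that was 0.44 without CC replicate 2 and 0.05 without CC replicates 2 and 4. Their part in the replication and splicing lists was not tested.

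Clock genes had 10 of 14 above 0 (median 0.39) and 4 higher at an unadjusted p under 0.05, beside 56.3% and 8.39% of all genes. Per2 was at 710.7, 493, 1072, 667.4 and 856 in CC and 1276, 1561, 1736 and 994.9 in UU, with UU replicate 4 below CC replicate 3 (log2 difference 0.86 ± 0.23, adjusted p = 0.129). Hlf, an output factor of the clock, gave 0.65 ± 0.17 with no overlap, and Cry1, a repressor beside Per2, 0.74 ± 0.27. The median was 0.19 without CC replicate 5 and 0.09 when a gene's probe sets were averaged. The hour of dissection is not in the labels.

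Heat shock genes had 11 of 16 above 0 (median 0.26), which was just below 0 when a gene's probe sets were averaged and was 0.01 without CC replicates 2 and 4. Hsph1, a nucleotide exchange factor for Hsp70, was at 2116, 910.8, 2479, 2171 and 2032 in CC and 3562, 3324, 4771 and 2824 in UU (log2 difference 0.94 ± 0.24, adjusted p = 0.129), with 0.70 for its other probe set. Its promoter is shown as the leading heat shock gene. RefSeq places the window at chr5:149636287-149636586 of GRCm38.p6 on the minus strand. Capitals mark a match on the opposite strand to GAA, TTC and GAA with 2 bases between neighbours, the repeat bound by heat shock factors, which begins 36 bases after the start. Both strands were searched, and 198 of 32851 promoters (0.603%) hold a match.
Hsph1: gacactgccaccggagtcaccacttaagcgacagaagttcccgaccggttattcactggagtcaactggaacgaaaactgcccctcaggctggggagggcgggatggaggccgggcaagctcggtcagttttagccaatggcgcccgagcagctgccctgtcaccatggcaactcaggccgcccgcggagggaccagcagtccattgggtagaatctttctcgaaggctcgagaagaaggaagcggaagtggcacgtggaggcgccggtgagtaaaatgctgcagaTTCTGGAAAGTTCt

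Among stress and checkpoint genes, the cell cycle inhibitor Cdkn1a was at 2951, 2022, 3056, 1742 and 4563 in CC and 4997, 4608, 4359 and 4120 in UU, with CC replicate 5 inside the UU range (log2 difference 0.73 ± 0.23, adjusted p = 0.171). Polk, a DNA polymerase that copies past damage, was at 541 to 742.1 and 898.1 to 1367 (0.77 ± 0.20, adjusted p = 0.129), with 0.16 for its other probe set. The p53 target list to which both belong had 7 of 13 above 0 and a median of 0.12. The amino acid shortage list had 12 of 18 below 0 (median -0.14, or -0.03 without UU replicate 3), with asparagine synthetase, Asns, at -0.13 ± 0.23. The glucocorticoid list had 10 of 18 above 0 and a median of 0.10, which was -0.05 without CC replicate 2, with 8 of 18 above 0. Glul, glutamine synthetase, was higher on every UU array, at 61213 to 95584 against 30614 to 52742 (0.78 ± 0.26), with 0.19 for its other probe set, while Fkbp5 gave 0.45 ± 0.47 with CC replicate 2 at 702.7 and the other controls at 3565 to 5104. Without that control Fkbp5 was at -0.07.

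Ribosomal protein genes had 27 of 42 tested above 0 (75 listed), 5 higher and 0 lower at an unadjusted p under 0.05, and a median of 0.18, beside 56.3% above 0 and 8.39% higher among all genes. The median was 0.02 without UU replicate 1 and 0.10 without CC replicate 4. Rps20 and Rps18 gave 0.50 ± 0.17 and 0.51 ± 0.20, but other Rps18 probe sets lay between -0.08 and 0.07, and pseudogene copies can share such probes. Mitochondrial ribosomal proteins had 43 of 62 below 0 (median -0.15), or 38 of 62 (median -0.05) without UU replicate 3. The insulin receptor gene Insr was at 503 ± 119 in CC and 596 ± 98 in UU (log2 difference 0.24 ± 0.23), and the insulin signalling list had a median of -0.11 over 14 genes.

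The direct test between the restricted groups, UU against UC, shares the UU arrays with the comparison above and is given for named genes. Over the same 12228 probe sets limma called 6 higher (0.0491%) and 59 lower (0.482%) in UU. None was called without UC replicate 2 or without UC replicate 4, 109 without UC replicate 1 and 10 without UC replicate 5. Of 248 named genes 16 were called, and 3 of these (H1f2, Mest and Retnla) without UC replicate 5. Many named genes were picked by small p with the same UU arrays, so this count is not independent support. Genes called lower included Adamts5 (log2 difference -1.11 ± 0.22, limma adjusted p = 0.0394), Mgll (-1.25 ± 0.24, limma adjusted p = 0.0387), Col5a3 (-1.16 ± 0.24, limma adjusted p = 0.0408) and Pfkp (-0.77 ± 0.16, limma adjusted p = 0.0459). H1f2 had UC signals of 6480 to 8713 and a difference of -0.93 ± 0.15 (limma adjusted p = 0.0281). The mean signal of Fasn was 41823 ± 11864 in UC and 18183 ± 8801 in UU (-1.32 ± 0.33, limma adjusted p = 0.0886), where UU overlapped UC at UU replicate 2. Prelp at -1.45 ± 0.32 and Cxcl14 at 0.99 ± 0.22 lay just outside the threshold (limma adjusted p = 0.0572 and 0.0541).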

How the data were processed

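RNA from 14 epididymal fat samples (5 CC, 5 UC and 4 UU) was hybridised to 1-colour Affymetrix arrays, 1 array a sample. The authors deposited linear intensity values, produced by GCOS 1.3 with the MAS5 method, per the submitters' processing notes. With 2% trimmed at both ends, mean signals were 1500.45 to 1500.57 on all arrays, so a shift of all transcripts could not be seen. The number of arrays limits the precision.

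Of 22690 probe sets on the array, 20380 had a single symbol in the platform annotation, 691 had several, 1555 had none and 64 were controls. RefSeq symbols replaced old ones through Entrez identifiers for 20351. Values were transformed as log2(signal + 32), which understates the change of dim genes. The 40% of probe sets with the lowest mean were dropped. The remaining 12228, of 8164 genes, were fitted over all 14 arrays with limma 3.58.1 in R 4.3.3 (empirical Bayes with a trend, residual degrees of freedom 11). Contrasts were two-sided, and p-values were adjusted by Benjamini and Hochberg over all probe sets at a threshold of 0.05. Gene lists (53 lists, 1181 symbols) were described by counts and medians, with no test. On simulated data, with noise independent between probe sets, 4.09% of the calls were false.

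The members and lists were chosen with earlier results of these data known. Named genes were the 15 of smallest p in each direction, up to 4 members of each list in its majority direction, a fixed panel, the 2 brightest members of cell type lists, and sex-linked genes. Panel genes Sfrp5, H19, Cfd and Plin1 and the sex-linked Ddx3y gave no tested value. Alternatives changed the pseudocount (1, 128), the filter, scaling, probe set rule, variance trend, array weights, the arrays fitted, a replicate block, and covariates for epididymal level and the 3′ over 5′ ratio. Promoters came from RefSeq (GRCm38.p6). Figures used matplotlib 3.10.9.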

Additional observations from a re-analysis of the deposited data

Results flagged for a closer look

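A sample was marked as standing apart when its gap to the nearest array of its group, divided by the group's range, passed Dixon's 95% critical value (0.829 for 4 arrays, 0.71 for 5). Of 130 groups tested, 15 samples were found, and chance alone marks about 1 in 20 groups. UU replicate 3, the array with the 3′ over 5′ log2 ratio of 2.096, stood highest in UU for Glo1 (7200.3) and Srsf10 (7151.1) and lowest for Adipoq (25262.8). These values are of each gene's brightest probe set. In the other Glo1 probe sets the same array was the lowest of UU, at 1946.8 and 2122.2. It was also the lowest in the other Srsf10 probe sets, at 1659.0, 1020.6 and 954.9. UU replicate 1 stood lowest for Lep (85.6) and Insr (451.9). CC replicate 2 stood apart for Xist (3980.6), Eif2s3y (58.6), Uty (119.3), Fkbp5 (702.7) and Srebf1 (8617.6). CC replicate 4 was highest for Scd1 (100199.5), Itgb1bp1 (5442.0) and Pecam1 (2853.2), and CC replicate 1 was highest for Glo1 (4766.4).

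Among the 15 genes of smallest p in each direction and the panel, 56 in all, 9 differed directly between UU and UC at a limma adjusted p under 0.05. The log2 differences, UU minus UC, were -2.721 for Retnla, -2.373 for Ccl6, -2.317 for Mest, -1.906 for Npr3, -1.252 for Cd93, -1.167 for Mrc1, -0.9319 for H1f2, -0.8976 for Rgl1 and 1.128 for Glo1. No probe set was called in this comparison without UC replicate 2 or without UC replicate 4. Over all 12228 probe sets 6 were called higher (0.0491%) and 59 lower (0.482%). All 9 genes came from those picked by p against CC, 8 lower and 1 higher. The same UU arrays entered both contrasts, so an excess of calls among them follows in part from the choice and is not independent support.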

How the results depend on the processing

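In UU against CC, 0 probe sets were called in limma. At an adjusted p under 0.1 there were 20. The count under 0.05 was 24 with array weights, 7 with the epididymal level as a covariate, 5 with the dimmest 60% left out, 5 with a replicate block and 1 (Mest) without CC replicates 2 and 4, and with single arrays left out it ran from 0 to 6. The count at an unadjusted p under 0.05, 1963 in the report, was 1212 without CC replicates 2 and 4, 1218 with only the brightest probe set of a gene, 1149 with a gene's probe sets averaged and 1200 to 2153 with single arrays left out, lowest without UU replicate 3. For UU against UC, 65 were called, and 0 (without UC replicate 2, or UC replicate 4) to 109 (without UC replicate 1) with single arrays left out. The cause of these shifts was not tested.

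Of the 56 genes refitted in all settings (the 15 of smallest p in each direction and the panel), 6 changed sign. Slc2a4 was at 0.17 with the 3′ over 5′ ratio as a covariate, 0.15 with array weights, 0.11 with the epididymal covariate, 0.014 without CC replicate 2, 0.10 without CC replicates 2 and 4 and 0.076 without UU replicate 3. Kdr was at 0.024 with array weights, 0.019 with the epididymal covariate, 0.091 without CC replicates 2 and 4 and 0.036 without UU replicate 4. Fkbp5 was at -0.074 without CC replicate 2 and -0.18 without CC replicates 2 and 4, where Asns was at 0.060. Lpl was at -0.28 with its probe sets averaged. With single arrays left out, Slc2a4 ran from -0.20 to 0.076, Kdr from -0.21 to 0.036, Fkbp5 from -0.074 to 0.63 and Fasn from -0.51 (without UU replicate 2) to 0.12 (without UU replicate 1). Among gene refits, 1574 kept direction and side of the threshold, 27 newly passed and 15 changed sign. Of list medians, 1486 moved by less than the spread between arrays and 50 by more.

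The replicate numbers were not taken as pairing the arrays, since the labels do not say that they do. Same-numbered CC and UU arrays had deviations correlated at 0.024, 0.065, 0.261 and 0.19 for replicates 1 to 4. Pairs of different numbers ran from -0.213 to 0.138. CC replicates 2, 3 and 4 correlated best with the UU array of their own number, and CC replicate 1 with UU replicate 2 (0.113). Whether the numbers pair the arrays is not known, so the 5 calls with the replicate block are given only as a value.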

Other observations

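Antigen presentation, Wnt signalling and sterol synthesis add smaller differences between UU and CC, none of which passed in limma. Cd74, the chaperone of MHC class II molecules, was at 5912, 10460, 3396, 8176 and 3036 in CC and at 2217, 2659, 2549 and 3793 in UU, where UU replicate 4 lay above the lowest controls. Its list had 4 of 5 tested members below 0, with a median of -0.54, or -0.18 without CC replicates 2 and 4. Wnt pathway genes had 6 of 9 above 0 and a median of 0.42, or 0.19 without CC replicates 2 and 4. Among them Ccnd1, the cyclin that opens the cell cycle, gave 0.47 ± 0.21 and the secreted Dkk3 0.50 ± 0.23. Cholesterol synthesis had 11 of 15 below 0, yet the median was -0.03, with -0.21 without CC replicate 2 and -0.28 without CC replicates 2 and 4. Hmgcs1, the enzyme of the first committed steps, was at 19837 to 30784 in CC and at 13880, 16980, 27984 and 14526 in UU, so UU replicate 3 alone was inside the control range.

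Transcripts of other tissues did not share 1 direction. Ttr and Alb, which encode plasma proteins of liver, were higher on every UU array, with Ttr at 894.2 to 1228 against 38.0 to 795.6 and Alb at 1022 to 1520 against 550.4 to 961.9. The log2 differences were 2.13 ± 0.97 and 0.76 ± 0.62 (limma adjusted p = 0.295 and 0.553), and Ttr was at 1.20 without CC replicates 2 and 4. Alas2, the heme synthesis enzyme of red cell precursors, was lower at -1.19 ± 0.37, with UU replicate 4 (2361) above 2 controls. Mesothelial markers had 6 of 7 below 0 (median -0.49, or -0.23 without CC replicates 2 and 4), with Upk3b at -0.85 ± 0.44 and CC replicate 2 the highest control at 4632. Nr4a1, an immediate early transcription factor, was at 1363 to 2037 in CC and 937.1 to 1192 in UU (-0.53 ± 0.17), while its list of 19 tested genes had a median of -0.16 that turned to 0.06 without CC replicates 2 and 4.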
